A study of Equus caballus with 25 samples.

Results

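TFRC, FTL and SLC11A1 are 3 horse genes of iron uptake, storage and transport, and their messenger RNA was followed here through the oestrous cycle in the endometrium, the lining of the uterus. The members were all array probes named by a RefSeq transcript of 1 of these genes, which gave 3 of the 620 genes that could be named on the array, with 1 probe each among 43603. The transcripts were NM_001081913 for TFRC, NM_001114540 for FTL and NM_001081857 for SLC11A1. Biopsies came through the cervix from 5 normal cycling Bavarian Warmblood mares for which the labels name no treatment, and every mare was sampled once at each of 5 times, not all in the same cycle. The groups of 5 arrays were day 0, the day of ovulation, which the labels place in the ovulatory phase just after the follicle has ruptured, day 3 in the early luteal phase, day 8 in the mid and day 12 in the late luteal phase, and day 16 at the start of the following ovulatory phase. In the luteal phase the ovary makes progesterone. The mares' ages are not given in the sources used here.

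Animal cells take up iron mainly by binding the plasma iron carrier transferrin with the transferrin receptor, the product of TFRC, and drawing the complex into endosomes. Iron that is not used at once is kept inside the shell of ferritin, which is built of heavy chains that oxidise iron and light chains, the product of FTL, that help the iron core to form. SLC11A1 encodes a metal transporter of the phagosome membrane, known from mouse and human macrophages, where it moves iron and manganese out of the compartment that holds engulfed material. In mammals, iron regulatory proteins bind the messenger RNAs of TFRC and of the ferritin chains, stabilising the first and blocking translation of the second, so that a transcript level and a protein level of these genes can part.

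A level below is the log2 fluorescence of a probe minus the 75th percentile of all spots on the same array, which sets every array to a common scale, so that a level of 0 is the 75th percentile and a difference of 1 is a doubling. Levels of different probes are not on a common scale and are not set against each other. A summed signal of several markers below is led by the brighter probes and shows little of the dimmer ones. That percentile lay between 697.5 and 3701 scanner units over the 25 arrays and had its lowest median, 895.5, on day 0. The share of spots well above background ran from 70.3% to 88.1%, none was saturated, and 35769 probes passed the filter on dim signals. The 5 arrays a day limit the precision of each value. The tissue label held against its markers: ESR1, the oestrogen receptor that the endometrium carries, stayed between 5.07 and 7.47 over all arrays, and P19, the uterocalin gene of the mare's endometrium, between 2.69 and 8.01.

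Each of the 3 genes changed over the cycle. TFRC was highest on days 16 and 3 and lowest on day 0, FTL was high on days 0, 12 and 16 and low on days 3 and 8, and SLC11A1 climbed to a peak on day 8. In limma's moderated F test over the 5 days the adjusted p was 0.00435 for TFRC, 9.79e-05 for FTL and 4.69e-07 for SLC11A1 (n = 5 a day). A change over the days was common on these arrays, since 35.8% of all tested probes passed this test. A biopsy holds many cell types, so a lower value can come from fewer cells of a type or from less of the RNA in each cell, and these cannot be told apart.

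**Figure D1:**
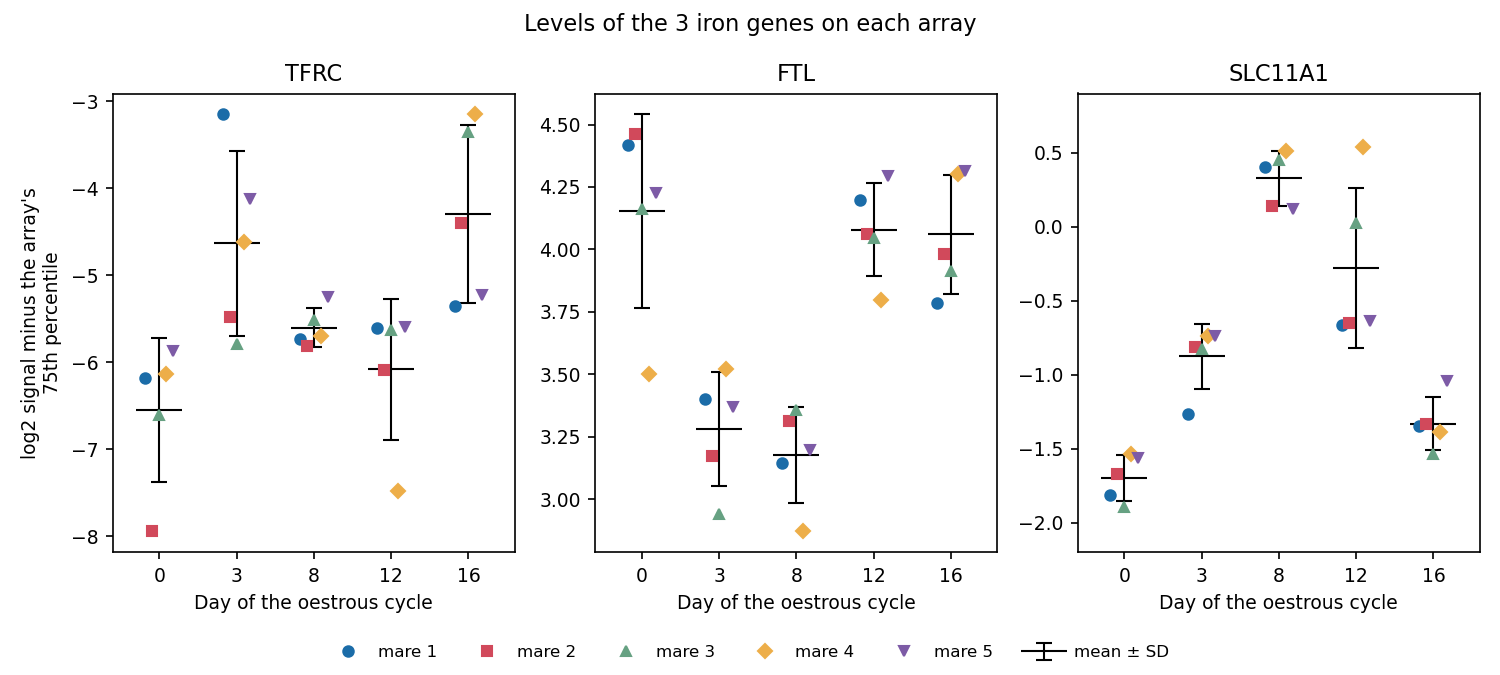
Level of TFRC, FTL and SLC11A1 (log2 signal minus the 75th percentile of the array, vertical axis, a separate scale for each gene) against the day of the oestrous cycle. Each symbol is 1 array of 1 mare, and the bars are the mean ± SD of 5 mares. TFRC is widely spread on days 3 and 16, FTL forms a low pair of days at 3.28 and 3.18, and SLC11A1 peaks at 0.33 on day 8.

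TFRC, the receptor that brings transferrin-bound iron into the cell, had levels of −6.18, −7.94, −6.61, −6.13 and −5.87 on day 0 in mares 1 to 5. On day 3 it stood at −3.15, −5.48, −5.78, −4.62 and −4.12 in the same mares, all above the highest day 0 value. Mare 1 had the highest of these, more than 2 units above mare 3.

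The day 8 levels of TFRC were −5.73, −5.82, −5.51, −5.70 and −5.25, the tightest of its 5 days. On day 12 it was at −5.60, −6.09, −5.63, −7.48 and −5.60, with mare 4 far below the other four. On day 16 the levels were −5.36, −4.39, −3.36, −3.15 and −5.23, again with no overlap with day 12. The mares did not keep their order: mare 1 was the highest on day 3 and the lowest on day 16.

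The day means of TFRC were −6.55 ± 0.82, −4.63 ± 1.06, −5.60 ± 0.23, −6.08 ± 0.81 and −4.30 ± 1.03 for days 0, 3, 8, 12 and 16 (SD, n = 5 each). It rose by 1.92 ± 0.51 on day 3 against day 0 (SE, 3.77-fold, limma adjusted p = 0.0157), in 5 of 5 mares. It also rose on day 16 against day 12, by 1.78 ± 0.51 (3.44-fold, limma adjusted p = 0.0287), in 5 of 5 mares. On day 0 it fell by 2.25 ± 0.51 against day 16, a level 4.76-fold lower, in 5 of 5 mares (limma adjusted p = 0.0112). TFRC passed the test in 4 of the 10 pairs of days, the last being day 12 against day 3 at −1.45 ± 0.51 (limma adjusted p = 0.0491), where the days overlapped. Without 1 array that last call was lost in 8 of 10 cases, and without 1 mare in 4 of 5. It was also lost in 8 of 17 alternatives, among them no filter on dim probes, slide as a block and scan day as a block (limma adjusted p = 0.0619, 0.0781 and 0.0668). Those 17 include the means within slides and within scan days, which have no test.

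In the order of its means, day 16, day 3, day 8, day 12 and day 0, no neighbouring days of TFRC passed the test. Day 16 minus day 3 was 0.33 ± 0.51 and day 8 minus day 3 was −0.97 ± 0.51 (limma adjusted p = 0.780 and 0.227). Day 12 minus day 8 was −0.48 ± 0.51 and day 12 minus day 0 was 0.47 ± 0.51 (limma adjusted p = 0.666 and 0.585). The extremes of this gene were therefore separated and its middle was not resolved.

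TFRC was dim on these arrays, and its level correlated with the brightness of the array. Its probe was printed 5 times on each array, and 117 of the 125 spots were well above background, with 24 of the 25 arrays counted as detecting it. The array that did not was that of mare 2 on day 0. On day 0 the spots had from 1.36 to 2.87 times the fluorescence of their local background, and 18 of 25 spots were well above it. On day 3 that ratio ran from 2.63 to 14.0, and on day 16 from 2.46 to 16.2, with every spot well above background on both days. The low value of mare 4 on day 12 had the smallest ratio of all arrays, 1.34. The 5 spots of an array differed among themselves by a median SD of 0.11 and at most by 0.48. Over the 25 arrays the TFRC level correlated with the log2 75th percentile of the array at r = 0.67, and at 0.57 after the day means were removed, a description over arrays that share mares and slides.

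**Figure D2:**
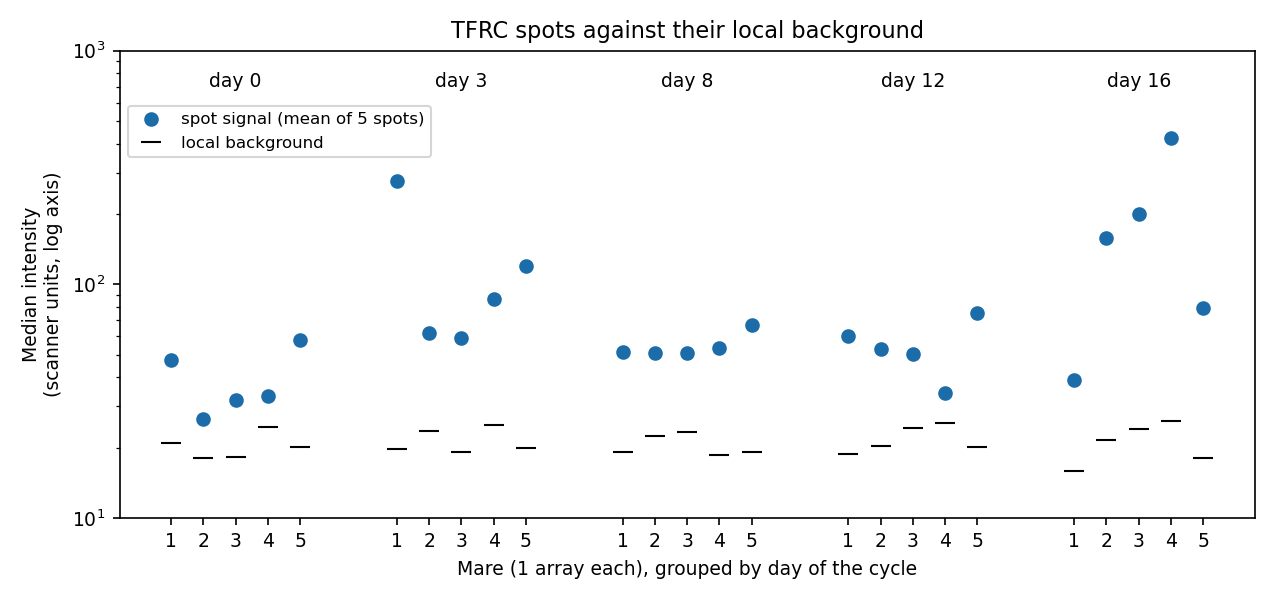
Fluorescence of the TFRC spots (mean over the 5 spots of each array of their median intensity, circles) and of the local background around them (dashes), in scanner units on a log axis, for each mare within each day. On day 0 the spots lie from 1.36 to 2.87 times above their background, and on day 16 from 2.46 to 16.2 times.

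Several calls of TFRC ended when brightness or slide entered the model. With the brightness of the array as a covariate, day 3 minus day 0 was 1.04 (limma adjusted p = 0.246), day 0 minus day 16 was −1.22 (limma adjusted p = 0.535) and day 16 minus day 12 kept its call at 1.61 (limma adjusted p = 0.0214). That brightness is the 75th percentile already subtracted from each level. Its median was 895.5 on day 0 and from 1559 to 2001 on the other days, so comparisons with day 0 cannot fully separate day from brightness. With the slide as a block these 3 differences were 1.76, −1.91 and 1.64 (limma adjusted p = 0.0585, 0.0673 and 0.0913). On slides carrying both days, day 3 minus day 0 ran from 0.39 to 1.75 on 3 slides and day 16 minus day 12 from 0.24 to 4.33 on 3 slides, and day 0 minus day 16 from −2.98 to −0.65 on 3 slides. Without mare 2 on day 0 the first was 1.57 and without mare 1 on day 3 it was 1.55 (limma adjusted p = 0.0576 and 0.0598). Day 16 minus day 12 lost its call without any 1 of 5 arrays, those of mares 2 and 4 on day 12 and of mares 2, 3 and 4 on day 16, with adjusted p between 0.0510 and 0.0946. With mare and slide as blocks together the differences of day 3 minus day 0, day 16 minus day 12 and day 0 minus day 16 were 1.49, 2.02 and −1.65 (limma adjusted p = 0.315, 0.0920 and 0.317), and the F test of TFRC over the 5 days did not pass (limma adjusted p = 0.0839).

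FTL, the ferritin light chain, held 2 levels over the cycle. On day 0 its levels in mares 1 to 5 were 4.42, 4.46, 4.16, 3.50 and 4.23. On day 3 they were 3.40, 3.17, 2.94, 3.52 and 3.37. Mare 4 was the exception, with the lowest day 0 value and no drop on day 3.

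On day 8 FTL was at 3.15, 3.31, 3.36, 2.87 and 3.20, within the range of day 3 except for mare 4. On day 12 it was at 4.20, 4.06, 4.04, 3.80 and 4.29, above every day 3 and day 8 value. On day 16 the levels were 3.79, 3.98, 3.91, 4.30 and 4.31, spread over the same range as day 12. Its spots were far above background, with a fluorescence 287 to 2335 times that around them.

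The means of FTL were 4.15 ± 0.39, 3.28 ± 0.23, 3.18 ± 0.19, 4.08 ± 0.19 and 4.06 ± 0.24 for days 0, 3, 8, 12 and 16 (SD, n = 5 each). FTL fell by 0.87 ± 0.18 on day 3 against day 0 (SE, 1.83-fold lower, limma adjusted p = 0.00313), in 4 of 5 mares, with mare 4 at 0.02. It rose by 0.90 ± 0.18 on day 12 against day 8 (1.87-fold, limma adjusted p = 0.0189), in 5 of 5 mares and without overlap. Days 12 and 16 both stood above days 3 and 8: day 12 minus day 3 was 0.80 ± 0.18, day 16 minus day 8 was 0.88 ± 0.18 and day 16 minus day 3 was 0.78 ± 0.18 (limma adjusted p = 0.0026, 0.00135 and 0.00443), each in 5 of 5 mares. Day 8 minus day 0 was −0.98 ± 0.18, lower on day 8 in 5 of 5 mares (limma adjusted p = 0.000352).

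Within each level the days could not be separated. Day 8 minus day 3 was −0.10, with a 95% interval from −0.47 to 0.26 (limma adjusted p = 0.764). Day 16 minus day 12 was −0.02, from −0.39 to 0.35, and day 0 minus day 16 was 0.09, from −0.27 to 0.46 (limma adjusted p = 0.964 and 0.805). FTL passed the test in 6 of the 10 pairs of days, the 6 that set a day of the high level against a day of the low one.

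The FTL step between days 8 and 12 was seen within each of the 3 slides that held both days, from 0.69 to 1.05, although its call depended on the setting. It was lost without 1 array in 4 cases, those of mares 3 and 4 on day 8 and of mares 1 and 3 on day 12 (limma adjusted p from 0.0524 to 0.0601), at sizes of 0.83 to 0.95, and without 1 mare in 4 of 5 cases (limma adjusted p up to 0.236). With mare and slide as blocks together it was 0.82 (limma adjusted p = 0.104). On the 3 slides that held both days, the fall on day 3 against day 0 ran from −1.48 to 0.02. The 0.02 came from mare 4 on both days. With the slide alone as a block this fall was −0.78 and kept its call (limma adjusted p = 0.0214). So did day 8 minus day 0, at −0.90 (limma adjusted p = 0.00667). Without 1 mare the call for day 3 minus day 0 was lost in 0 of 5 cases. With mare and slide as blocks together neither difference passed, day 3 minus day 0 at −0.45 and day 8 minus day 0 at −0.57 (limma adjusted p = 0.330 and 0.211). The correlation of FTL with the brightness of the array was 0.02 over the 25 arrays and 0.32 after the day means were removed.

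SLC11A1, the metal transporter of phagosomes, described a single peak. On day 0 its levels in mares 1 to 5 were −1.82, −1.67, −1.90, −1.54 and −1.56. On day 3 they were −1.26, −0.81, −0.83, −0.74 and −0.74, with mare 1 apart from the rest. On day 8 they reached 0.41, 0.14, 0.45, 0.51 and 0.12. Every mare was higher on day 3 than on day 0 and higher on day 8 than on day 3, and none of these groups overlapped.

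On day 12 the mares parted. SLC11A1 was at −0.66, −0.65, 0.03, 0.54 and −0.63, so that mare 4 was still at its day 8 level while mares 1, 2 and 5 were well below theirs. On day 16 the levels were −1.35, −1.33, −1.54, −1.39 and −1.04, back below every day 12 value. Day 12 had an SD of 0.54, against 0.16 to 0.22 on the other days.

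The means of SLC11A1 were −1.70 ± 0.16, −0.88 ± 0.22, 0.33 ± 0.18, −0.28 ± 0.54 and −1.33 ± 0.18 for days 0, 3, 8, 12 and 16 (SD, n = 5 each). It rose by 0.82 ± 0.20 on day 3 against day 0 (SE, 1.77-fold, limma adjusted p = 0.00858) and by a further 1.20 ± 0.20 on day 8 against day 3 (2.30-fold, limma adjusted p = 0.000209). Both steps together made day 8 minus day 0 2.02 ± 0.20 (4.06-fold, limma adjusted p = 1.92e-07). It fell by 1.05 ± 0.20 on day 16 against day 12, a level 2.08-fold lower (limma adjusted p = 0.00129). All 4 of these differences had the same direction in 5 of 5 mares.

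Day 12 minus day 8 was −0.60 ± 0.20 and did not pass (limma adjusted p = 0.130), with 4 of 5 mares lower on day 12. Without mare 4 on day 12 it was −0.81 (limma adjusted p = 0.0439). Day 0 minus day 16 was −0.37 ± 0.20 (limma adjusted p = 0.316), with all 5 mares lower on day 0 but the days overlapping. In the order day 8, day 12, day 3, day 16 and day 0, the neighbours that passed were day 12 and day 3, at 0.60 ± 0.20 (limma adjusted p = 0.0363). That call was lost without 1 array in 4 of 10 cases, without 1 mare in 4 of 5 and in 5 of 18 alternatives. Those 18 include the means within slides and within scan days, which have no test. Day 16 minus day 3 was −0.46 ± 0.20 (limma adjusted p = 0.137).

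SLC11A1 passed the test in 7 of the 10 pairs of days, and its main steps held within slides. Day 8 minus day 3 ran from 0.86 to 1.67 on the 4 slides with both days, and day 3 minus day 0 from 0.80 to 0.99 on 3 slides. Day 16 minus day 12 ran from −1.92 to −0.69 on 3 slides. The rise on day 3 against day 0 did not pass with mare and slide as blocks, at 0.87 (limma adjusted p = 0.127), nor without mare 2 or mare 3 (limma adjusted p = 0.0570 and 0.0631). Its spots had 12.2 to 112 times their local background, and its level correlated with array brightness at r = 0.14 over the 25 arrays and −0.14 after the day means were removed.

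Set side by side by pair of days, the 3 genes seldom changed in the same direction. All 3 passed for day 3 against day 0, TFRC and SLC11A1 higher and FTL lower, where 12.7% of all tested probes passed, and TFRC and SLC11A1 did not overlap between those days, as did 7.8% of probes. The median of all tested probes was −0.11 in that comparison, so that FTL fell and the others rose beyond this shift. For day 8 against day 3 SLC11A1 alone of the 3 passed (13.8% of probes passed and 14.2% did not overlap). For day 12 against day 8 only FTL of the 3 passed, in the comparison with the fewest calls, 1.1% of probes, where 9.54% did not overlap.

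For day 16 against day 12 TFRC was higher and SLC11A1 lower, both without overlap, where 8.07% of probes passed and 6.56% did not overlap. For day 0 against day 16 TFRC was called, lower on day 0 and without overlap (4.71% of probes passed and 3.49% did not overlap). For day 8 against day 0 FTL was lower and SLC11A1 higher, where 21.9% of probes passed. None of the 3 genes overlapped between those days, which held for 18.3% of probes, although TFRC did not pass at 0.94 ± 0.51 (limma adjusted p = 0.198).

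For day 12 against day 0 SLC11A1 was higher at 1.42 ± 0.20 (limma adjusted p = 2.28e-05), where 17.9% of probes passed and 14.4% did not overlap. For day 12 against day 3 all 3 genes passed, FTL and SLC11A1 higher and TFRC lower, the calls of TFRC and SLC11A1 being those lost above in most omissions of a mare, where 17.9% of probes passed and 14.2% did not overlap, and the median of all probes was 0.15. For day 16 against day 8 FTL was higher and SLC11A1 lower, at −1.66 ± 0.20 (limma adjusted p = 5.56e-06), where 15% of probes passed and 11.9% did not overlap. For day 16 against day 3 FTL was called (13.8% of probes passed and 8.02% did not overlap). These comparisons share their days, so their values are not independent of one another.

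**Figure D3:**
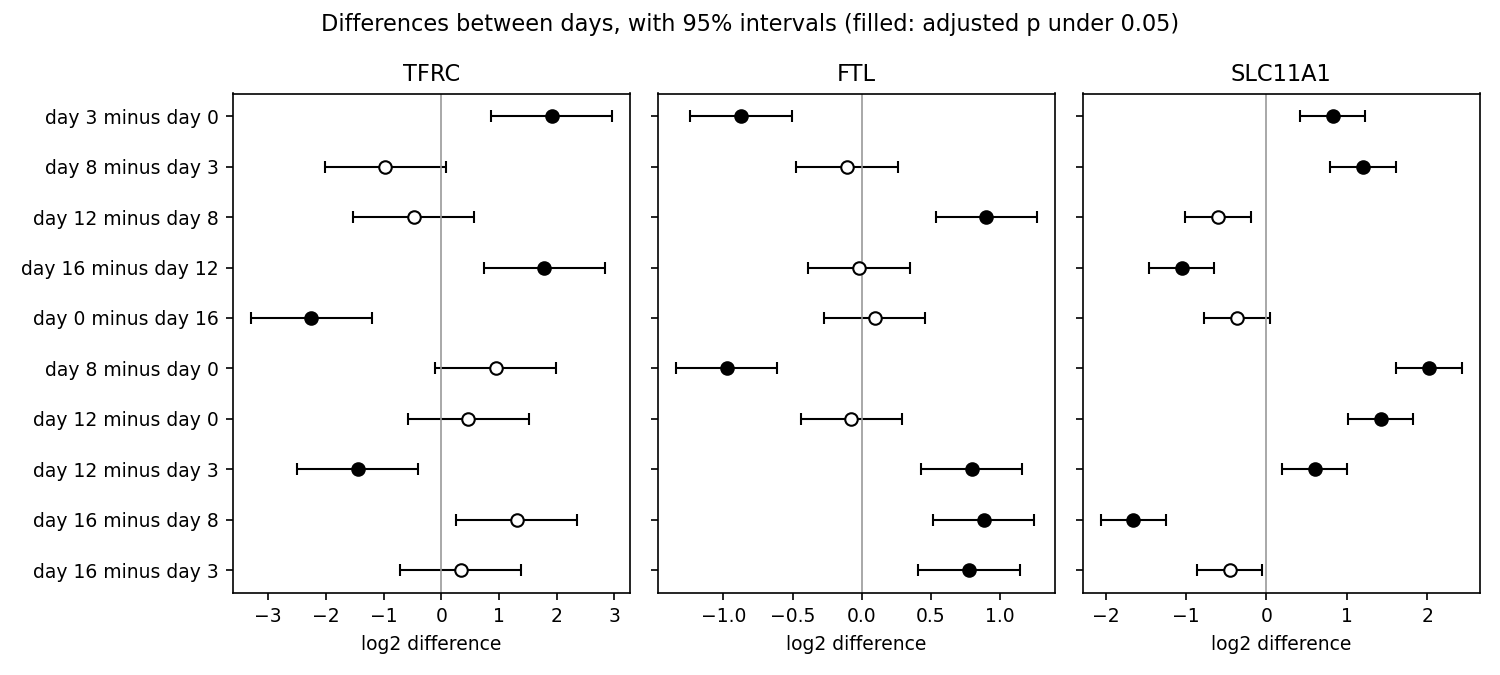
Differences between days for each gene (log2, first-named day minus second-named day, horizontal axis, a separate scale for each gene), with 95% intervals from the limma fit over 25 arrays. Filled circles passed at an adjusted p under 0.05, which 4 of 10 did for TFRC, 6 of 10 for FTL and 7 of 10 for SLC11A1.

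Across the 25 arrays FTL and SLC11A1 ran in opposite directions, with r = −0.57, and −0.31 after the day means were removed. TFRC was nearly unrelated to FTL, at −0.15 and 0.21, and had r = −0.16 with SLC11A1, which became −0.49 without the day means. These arrays share mares, slides and brightness, and the values are descriptions.

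Few other genes of iron metabolism could be followed. Of a list of 66, 4 had a named probe, and all 4 were tested: TF, which encodes transferrin, IREB2, which encodes iron regulatory protein 2, B2M, whose product pairs with the iron sensor HFE and with class I histocompatibility chains, and EPO, the hormone that drives red cell formation. Ferroportin, hepcidin, the ferritin heavy chain and most other genes of the pathway had no probe that could be named, and were not analysed here. Over the 5 days B2M and EPO passed the F test and TF and IREB2 did not.

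TF, the carrier that TFRC binds, had means of −3.58 ± 0.56, −3.69 ± 0.66, −3.94 ± 0.44, −3.77 ± 0.15 and −3.55 ± 0.32 for days 0, 3, 8, 12 and 16 (SD, n = 5 each; F test of limma, adjusted p = 0.724). IREB2 had means of −2.56 ± 0.40, −2.29 ± 0.44, −1.99 ± 0.17, −2.12 ± 0.23 and −1.96 ± 0.46 (adjusted p = 0.177 in the same test). Neither passed in any of the 10 pairs of days. The differences of TF between days were all at most 0.38 in size, with an SE of 0.29, so changes of the size of those of FTL would lie near the limit of what its spread allowed to be seen.

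B2M had means of 5.45 ± 0.35, 4.51 ± 0.21, 4.75 ± 0.36, 5.09 ± 0.29 and 5.81 ± 0.19 over the same days (F test of limma, adjusted p = 0.000101). It fell by 0.94 ± 0.19 on day 3 against day 0 (limma adjusted p = 0.00351) and rose by 0.72 ± 0.19 on day 16 against day 12 (limma adjusted p = 0.0217), both in 5 of 5 mares. B2M and FTL thus both fell on day 3, and over the 25 arrays their levels correlated at r = 0.77, and at 0.53 after the day means were removed. Between days 8 and 12, where FTL made its step, B2M stood at 0.34 ± 0.19 (limma adjusted p = 0.409).

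EPO was near background, detected on 5, 1, 4, 5 and 5 of 5 arrays of days 0, 3, 8, 12 and 16. Its brightest probe had means of −5.01 ± 0.91, −7.22 ± 0.69, −6.39 ± 0.92, −5.55 ± 0.51 and −6.57 ± 0.85 (F test of limma, adjusted p = 0.00529). Day 3 minus day 0 was −2.21 ± 0.47 (limma adjusted p = 0.00443), and all 5 of its probes passed, with differences from −2.23 to −1.83. Since 4 of the 5 day 3 arrays did not have it well above background, the size of that difference was not measured.

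All calls among the 4 genes were of B2M and EPO. On day 3 against day 0 they had 0 higher and 2 lower with a median difference of −0.52, against −0.11 for all tested probes, of which 12.7% passed. On day 8 against day 0 there were 0 higher and 2 lower with a median of −0.53, where 21.9% of all probes passed, and with quantile scaling 0 of the 4 passed. On day 12 against day 3 there were 2 higher and 0 lower with a median of 0.37, against 0.15 for all probes, of which 17.9% passed, and with quantile scaling 1 of the 4 passed. On day 16 against days 12, 8 and 3, B2M alone was higher. On day 8 against day 3 and on day 12 against day 8 none of the 4 passed (0 higher and 0 lower by limma, and 0 at an unadjusted p under 0.05).

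SLC11A1 is known from macrophages, and the 2 macrophage markers that could be read did not share its peak. Of 10 markers of macrophages and monocytes, 2 had a tested probe: CD14, the co-receptor for bacterial lipopolysaccharide, and CD68, a lysosomal glycoprotein. CD14 had means of 0.52 ± 0.37, 0.23 ± 0.25, −0.12 ± 0.18, 0.96 ± 0.35 and 1.06 ± 0.78 for days 0, 3, 8, 12 and 16 (F test of limma, adjusted p = 0.00616), lowest on the day on which SLC11A1 was highest.

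CD68 had means of −2.21 ± 0.59, −3.24 ± 0.44, −3.15 ± 0.58, −2.95 ± 0.55 and −3.25 ± 0.64 (F test of limma, adjusted p = 0.079). On day 8 against day 0, where SLC11A1 rose 4.06-fold, CD14 was at −0.64 ± 0.27 and CD68 at −0.93 ± 0.35 (limma adjusted p = 0.101 and 0.0558), each lower on day 8 in 5 of 5 mares. The summed signal of the 2 markers, relative to the 75th percentile of each array, ran from 1.08 to 2.11 on day 0, from 1.10 to 1.49 on day 3, from 0.901 to 1.24 on day 8, from 1.76 to 3.05 on day 12 and from 1.51 to 5.12 on day 16. CD14 made up most of this sum, so it says little of CD68, whose highest mean was on day 0. Over the 25 arrays SLC11A1 correlated with CD14 at r = −0.32 and with CD68 at −0.45, and without the day means at 0.06 and −0.63. The part of macrophages in the SLC11A1 values was not tested.

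The correlation of FTL with CD14 over the 25 arrays was 0.71, and 0.44 without the day means, and with CD68 0.49 and 0.52. Of the T and NK cell markers, CD2 gave 0.11 and 0.08, GNLY 0.79 and 0.41, and CCL5 0.82 and 0.60. With PECAM1 of endothelium the correlation of FTL was 0.57 and 0.305. With DCN and LUM of stromal fibroblasts it was 0.51 and 0.19 over the 25 arrays, and −0.18 and −0.17 without the day means. CD14 was at 1.09 ± 0.27 on day 12 against day 8, in 5 of 5 mares and without overlap (limma adjusted p = 0.0516). CD68 was at 0.20 ± 0.345 between these days, which overlapped (limma adjusted p = 0.798). On the same pair of days GNLY, the granulysin gene of cytotoxic lymphocytes, rose by 1.23 (limma adjusted p = 0.0293). The chemokine gene CCL5 rose by 0.97 (limma adjusted p = 0.0448), while its other probe, at 0.51, did not pass. CD2, a T and NK cell surface gene, had means of −3.89 ± 0.32 on day 12 and −4.02 ± 0.37 on day 8. GNLY, CCL5 and CD2 were the tested ones of 10 markers of T and NK cells. Their summed signal ran from 1.50 to 2.18 on day 12, against 0.588 to 0.939 on day 8, without overlap. GNLY and CCL5 made up most of that sum. The part of these cells in the FTL values was not tested.

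Other cell types left mixed traces. No neutrophil marker of 11 and no proliferation marker of 15 had a named probe, and of 7 red cell markers SLC4A1 alone did, with 5 probes that were above background on 0 or 1 of the 25 arrays. LUM and DCN, matrix genes and 2 of 6 markers of stromal fibroblasts, fell by 1.32 and 1.09 on day 3 against day 0 (limma adjusted p = 0.0162 and 0.00884), in the comparison in which FTL fell and TFRC rose. Their summed signal ran from 8.63 to 25.1 on day 3, against 29.8 to 44.7 on day 0. ESRP1, a splicing factor and 1 of 6 markers of epithelium, had means between 2.94 and 3.18 on all 5 days. PECAM1, 1 of 4 markers of endothelium, was at 0.74 on day 12 against day 8 (limma adjusted p = 0.0514). DYDC1, 1 of 3 markers of ciliated cells, was close to background on every day. The part of these cells in the results was not tested.

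**Figure D4:**
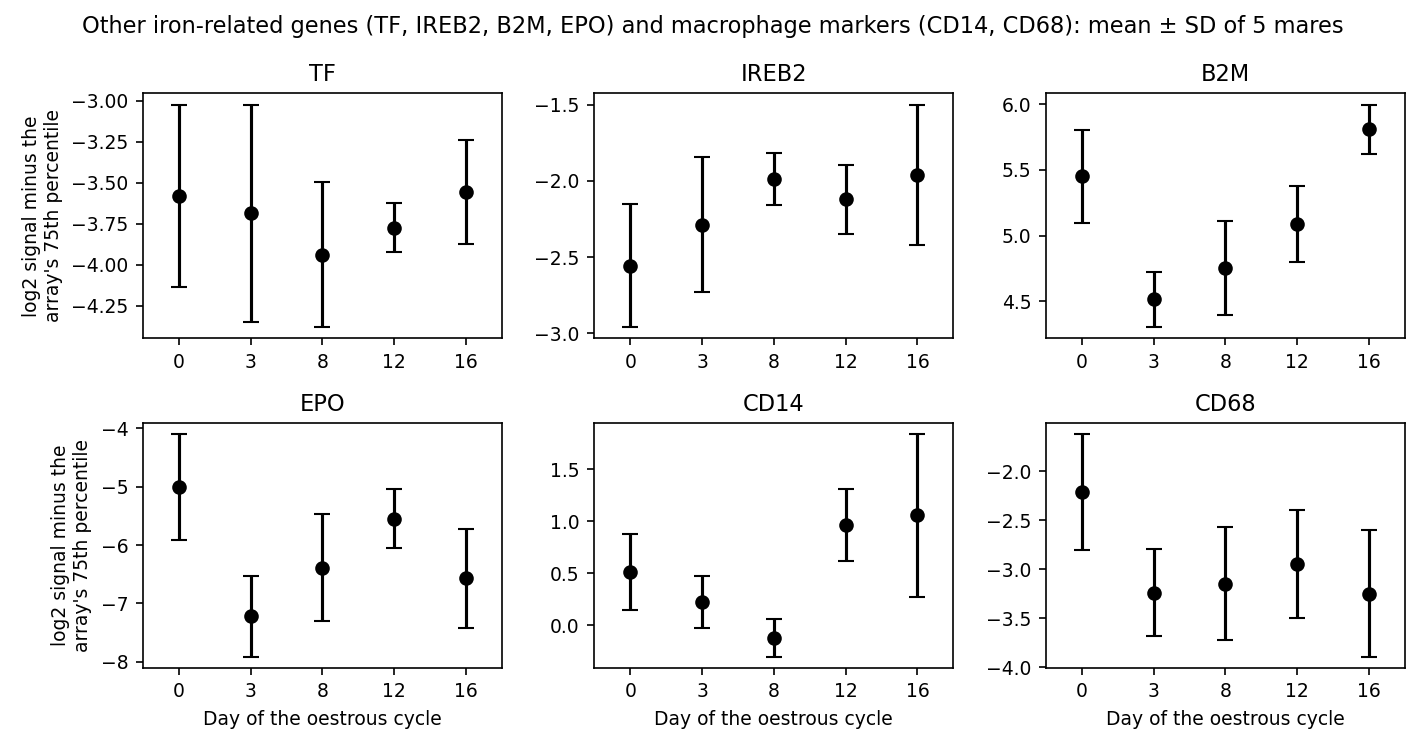
Levels of 4 other genes of iron metabolism (TF, IREB2, B2M and EPO) and of 2 macrophage markers (CD14 and CD68) by day, as mean ± SD of 5 mares (log2 signal minus the 75th percentile of the array, a separate scale for each gene). B2M is lowest on day 3 at 4.51, EPO on day 3 at −7.22 and CD14 on day 8 at −0.12.

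The genes most like each member over the 25 arrays were picked among 504 others by the highest correlation of levels. For TFRC these were PRKAA1, a catalytic subunit of the energy sensor AMPK (r = 0.84), SOD2, the manganese superoxide dismutase of mitochondria (0.77), TXNRD1, a thioredoxin reductase (0.74), and LDHA, a lactate dehydrogenase (0.73). The likeness persisted among mares of the same day, at 0.81, 0.71, 0.79 and 0.67 in that order once the day means were removed. Each of these 4 genes also correlated with the brightness of the array, at r from 0.45 to 0.70, as TFRC did.

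For FTL the genes reported were CCL5 (r = 0.82), GNLY (0.79) and MAOB, a monoamine oxidase (0.77). Without the day means these were 0.60, 0.41 and 0.71. For SLC11A1 they were PLIN2, a coat protein of lipid droplets (r = 0.90), FAM133B (0.90), FST, which encodes the activin-binding protein follistatin (0.87), and CYP3A89, a cytochrome P450 (0.86). Without the day means those 4 values lay between 0.16 and 0.40, so the likeness of SLC11A1 to them lay mostly in the day means, while that of TFRC and FTL was also present between mares on the same day.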

How the data were processed

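Total RNA was labelled with Cy3 per the labels' protocols, and 25 one-colour arrays were read. The deposited values are intensities that the authors took from Agilent Feature Extraction 10.7.3.1, per the file headers, with background subtracted within each array, and no scaling between arrays is recorded. The deposited value table equalled them on all 25 arrays within a relative difference of 1e-06.

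From these, log2 values minus each array's 75th percentile were computed. Spots marked as outliers were dropped, and the spots of a probe averaged. A probe was tested when well above background on at least 4 of 5 arrays of a day. Limma 3.58.1 in R 4.3.3 fitted 1 model of day to all 25 arrays, with Benjamini-Hochberg adjustment over 35769 probes within each comparison and a threshold of 0.05, two-sided. The fit was tested on simulated data. Figures used Python 3.11.15 and matplotlib 3.10.9.

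RefSeq names (assembly TB-T2T) matched 1307 probes of 620 genes. 32565 probes with Ensembl names were not matched, and no sequence or position is given. Each gene was represented by its brightest probe. Named genes were the members, list genes with a probe, and the 4 nearest genes by correlation, of which 1 is not reported here. The members and lists were chosen with earlier results of these data known.

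The labels give the mare of each array. Deviations from the day means correlated at a median of 0.245 between 50 pairs of arrays of the same mare, at −0.046 between 200 pairs of different mares, and at 0.120 for the 26 same-mare pairs split over slides, so the pairing mixes mare and slide. The 7 slides and 4 scan days were tried as blocks. Other alternatives were quantile or median scaling, normexp, dim-probe filters, marked spots kept, array brightness as a covariate, 2 days alone, trended moderation, and omission of arrays or mares.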

Additional observations from a re-analysis of the deposited data

Results flagged for a closer look

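Of 35 groups of 5 arrays checked, 2 held an array far from the other four, about as many as chance gives at 1 in 20. TFRC in mare 4 on day 12 was at −7.48, against −6.09 to −5.60 in the other mares of that day. SLC11A1 in mare 1 on day 3 was at −1.26, against −0.83 to −0.74 in the others.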

How the results depend on the processing

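SLC11A1 and FTL passed the F test over the 5 days under every alternative run. SLC11A1 kept its calls for day 8 against days 3 and 0 and for day 16 against day 8 in every alternative tested. Its 18 alternatives include the means within slides and within scan days, which have no test. TFRC depended on the setting. Its calls for day 3 minus day 0, day 16 minus day 12 and day 0 minus day 16 did not pass with normexp at an offset of 50 (0.20, 0.83 and −0.33), slide as a block (1.76, 1.64 and −1.91), scan day as a block (1.72, 1.63 and −1.92), the replicate block of mare and slide (1.49, 2.02 and −1.65) or only the 2 days compared (1.92, 1.78 and −2.25). Day 3 minus day 0 and day 0 minus day 16 also failed with marked backgrounds replaced (0.17 and −0.37), array brightness as a covariate (1.04 and −1.22) and after mare 2 on day 0 and mare 4 on day 3 were left out, arrays that an earlier look had found unlike the rest (1.56 and −1.90). With an offset of 1 in place of 50 and marked backgrounds replaced, both differences passed. They were 1.16 and −1.44, against 1.92 and −2.25 in the main fit. The F test of TFRC had an adjusted p of 0.498 with normexp and 0.0839 with mare and slide as blocks. With marked backgrounds replaced this F test passed, at an adjusted p of 0.0353 with an offset of 50 and 0.00737 with 1. Normexp also turned TFRC on day 8 minus day 3 to 0.35. With marked backgrounds replaced at an offset of 50 that difference was −0.375. An offset of 50 shrinks the log2 differences of dim probes by construction, and on 1 array normexp met a local background of 772899. The cause of the other changes was not tested.

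FTL on day 3 minus day 0 did not pass with normexp (−0.85), mare and slide (−0.45) or 2 days alone (−0.87), and on day 12 minus day 8 with the array median (0.84), normexp (1.40) or mare and slide (0.82). SLC11A1 on day 3 minus day 0 did not pass with normexp (0.60) or mare and slide (0.87), and its day 16 minus day 12 was −1.39 as a mean within slides and −1.46 within scan days. These normexp differences passed at an offset of 50 once marked backgrounds were replaced. FTL was then −0.85 on day 3 minus day 0 and 0.90 on day 12 minus day 8 (limma adjusted p = 0.00416 and 0.0231). SLC11A1 was then 0.60 on day 3 minus day 0 (limma adjusted p = 0.0239). Uncalled FTL differences changed sign. Day 16 minus day 12 was 0.051 with the array median, 0.027 with slide, 0.008 with mare and slide and 0.043 with scan day, and day 0 minus day 16 was −0.023 with quantile scaling, −0.005 with slide, −0.008 with scan day and −0.27 with mare and slide. With mare alone as the replicate block 0 of the 30 member comparisons between days changed their call, and TFRC on day 3 minus day 0 stayed at 1.92 (adjusted p = 0.0169), while the probes called for day 12 minus day 8 numbered 855 with that block, against 392 without it, and 604 with quantile scaling.

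Leaving out 1 array or 1 mare gave TFRC 1.55 to 2.21 on day 3 minus day 0, 1.15 to 2.17 on day 16 minus day 12 and −2.65 to −1.90 on day 0 minus day 16. Without 1 mare these calls of TFRC were lost in 3, 3 and 2 of 5 cases in that order (limma adjusted p up to 0.0818, 0.254 and 0.147). FTL ranged from 0.83 to 0.97 on day 12 minus day 8, from −0.15 to 0.079 on day 16 minus day 12, from −0.041 to 0.32 on day 0 minus day 16 and from −0.23 to 0.032 on day 8 minus day 3. SLC11A1 ranged from 0.76 to 0.92 on day 3 minus day 0 and from −0.81 to −0.49 on day 12 minus day 8. Each gene had 1 probe, so a mean over its probes was not run, and TFRC fell out of the filter that required detection on all 25 arrays. The low signal of TFRC over its background limits the precision of its values.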
